A study of Homo sapiens with 12 samples.

Results

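The histone deacetylases described here are 10 genes of classes I, II and IV, HDAC1 to HDAC9 and HDAC11, without HDAC10. They were taken by name from an expression table of 34687 rows, with 1 row under each of these names. HDAC7 had another row under an older name, HDAC7A, which is described below but not counted. Both human lines studied, HCT116 (from a colon cancer) and PANC1 (from a pancreatic adenocarcinoma), were given ICG-001 at 10 uM, C646 at the same dose or the solvent DMSO (0.05%) as control, and RNA was taken at 12 or 96 h. ICG-001 blocks the binding of β-catenin to the co-activator CBP, and C646 inhibits the acetyltransferase activity of CBP and of its relative p300. RNA was measured on Illumina HumanHT-12 BeadChips, whose bead-bound probes give a brightness for each transcript. Each of the 12 combinations of line, treatment and time had 1 column of signal intensity, which the authors had averaged over 2 arrays in 11 columns and over 3 arrays in the PANC1 ICG-001 12 h column. Per the methods, the cells of the 96 h groups were started at lower density than those of the 12 h groups and were passaged, so time, density and passage cannot be told apart. Each tumour type was represented by 1 cell line.

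With 1 averaged column in a group, no spread between replicates could be computed and no test was run. All differences below are sizes measured between 2 columns. The number of arrays limits their precision. As a guide to noise, rows too dim to be detected had log2 ratios whose SD, over the comparisons made here, was 0.070 to 0.074 (HCT116) or 0.062 to 0.073 (PANC1). This SD covers noise of dim rows only, not the spread between cultures. A row was called detected in a column when its signal passed a limit set from the background peak of that column, which lay between 144.6 and 145.7 in the HCT116 columns and between 136.2 and 138.8 in those of PANC1. Detection in at least 1 of the 2 columns was required to compare a gene, and a ratio of 1.5-fold or more was called. Background was not subtracted from the signals, so the ratios of dim genes understate their differences. Signals of different genes come from different probes and were not compared with each other.

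The lines were checked against marker genes. For EPCAM, an epithelial adhesion molecule, signals were between 6553 and 9562 in HCT116 and between 509 and 873 in PANC1. For CDX2, an intestinal transcription factor, they were 354 to 452 and 187 to 223. The intestinal genes VIL1, CDH17 and LGALS4 were under the limit in all 6 HCT116 columns, and KRT20 passed it in 1. LGALS4 passed it in 5 PANC1 columns, with signals up to 155, and CDH17 in 1, so these genes did not mark HCT116. VIM, a mesenchymal filament protein, had signals of 14637 to 18144 in PANC1 and 257 to 335 in HCT116. CDH2 was detected in PANC1 at 1548 to 2288 and was under the limit in HCT116. ZEB1, a mesenchymal factor, passed the limit in 5 PANC1 columns and in 0 of HCT116, and FN1 was under it in all 12 columns. KRT7, a ductal keratin, did not mark PANC1, since its signals were between 148 and 185 there and between 140.02 and 389 in HCT116, where 4 columns passed the limit.

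Histone deacetylases remove acetyl groups that acetyltransferases such as CBP and p300 place on histone tails and on other proteins, and deacetylation of histones is generally linked to lower transcription. Class I enzymes (HDAC1, HDAC2, HDAC3 and HDAC8) are mainly nuclear. HDAC1 and HDAC2 are catalytic subunits of the NuRD, SIN3, CoREST and MiDAC complexes, and HDAC3 is that of the NCoR/SMRT complex. Class IIa enzymes (HDAC4, HDAC5, HDAC7 and HDAC9) have little deacetylase activity of their own, bind MEF2 factors and move between nucleus and cytoplasm with 14-3-3 proteins. HDAC6, of class IIb, deacetylates tubulin in the cytoplasm, and HDAC11 is the only enzyme of class IV.

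The sequences upstream of 5 members are shown because these genes carry the results below. HDAC1, and HDAC8 in PANC1, differed between the drugs. HDAC2 and HDAC3 had lower signals with both drugs, and HDAC4 had the only call at 1.5-fold. The sequences are the 250 bases before the annotated start from RefSeq (GRCh38.p14), written 5′ to 3′ on the strand of the gene. Capitals mark 3 kinds of motif, searched on both strands. The GC box, read by SP1 and its relatives, was searched as GGGCGG. The CCAAT box, read by NF-Y, was searched by the letters of its name. The core of the site of TCF factors, the partners of β-catenin on DNA, was searched as CTTTGA.
HDAC1, chr1:32291833-32292082, plus strand: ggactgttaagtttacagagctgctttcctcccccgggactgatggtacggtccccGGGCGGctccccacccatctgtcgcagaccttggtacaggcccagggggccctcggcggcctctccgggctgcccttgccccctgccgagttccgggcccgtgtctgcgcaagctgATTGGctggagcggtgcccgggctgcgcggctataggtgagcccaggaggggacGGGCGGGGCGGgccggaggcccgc
HDAC2, chr6:113971149-113971398, minus strand: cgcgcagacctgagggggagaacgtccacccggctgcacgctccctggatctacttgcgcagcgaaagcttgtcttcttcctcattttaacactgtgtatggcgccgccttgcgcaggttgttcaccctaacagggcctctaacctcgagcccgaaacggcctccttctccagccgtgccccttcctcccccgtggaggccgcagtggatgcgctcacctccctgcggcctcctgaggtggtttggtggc
HDAC3, chr5:141636850-141637099, minus strand: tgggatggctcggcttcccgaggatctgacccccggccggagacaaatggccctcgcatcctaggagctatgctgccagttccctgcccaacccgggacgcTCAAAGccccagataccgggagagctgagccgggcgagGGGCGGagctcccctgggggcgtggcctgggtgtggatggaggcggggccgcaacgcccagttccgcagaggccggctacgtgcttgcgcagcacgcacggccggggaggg
HDAC8, chrX:72572844-72573093, minus strand: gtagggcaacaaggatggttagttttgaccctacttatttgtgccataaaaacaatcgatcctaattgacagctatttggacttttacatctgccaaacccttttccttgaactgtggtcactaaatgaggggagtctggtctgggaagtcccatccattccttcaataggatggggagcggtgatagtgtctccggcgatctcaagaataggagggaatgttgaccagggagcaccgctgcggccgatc
HDAC4, the most upstream of 5 listed starts, chr2:239401650-239401899, minus strand: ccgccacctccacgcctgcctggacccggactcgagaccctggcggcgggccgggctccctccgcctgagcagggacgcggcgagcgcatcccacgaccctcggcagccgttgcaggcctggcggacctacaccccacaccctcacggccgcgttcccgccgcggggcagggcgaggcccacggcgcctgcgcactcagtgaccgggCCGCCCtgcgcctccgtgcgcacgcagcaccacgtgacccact
The HDAC1 window held 3 GC boxes, the last 2 of which overlap, and 1 CCAAT box. The HDAC3 window held 1 GC box and 1 TCF core, and the HDAC4 window 1 GC box. The HDAC2 and HDAC8 windows held none of these motifs, nor did that of HDAC7, which is not printed. The GC content of the windows was 71.6% for HDAC1, 63.2% for HDAC2, 70.8% for HDAC3, 48% for HDAC8 and 76.8% for HDAC4, beside a median of 58% over 35116 promoters. Among all those promoters 42.6% held a GC box, 32.0% a CCAAT box and 11.2% a TCF core. Of 19 starts listed for 9 members, 8 held a GC box, 6 a CCAAT box and 2 a TCF core. Some windows of HDAC6 and of HDAC9 overlap, so the same box can count at several starts. A match describes letters only. No start was listed for HDAC5.

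**Figure D1:**
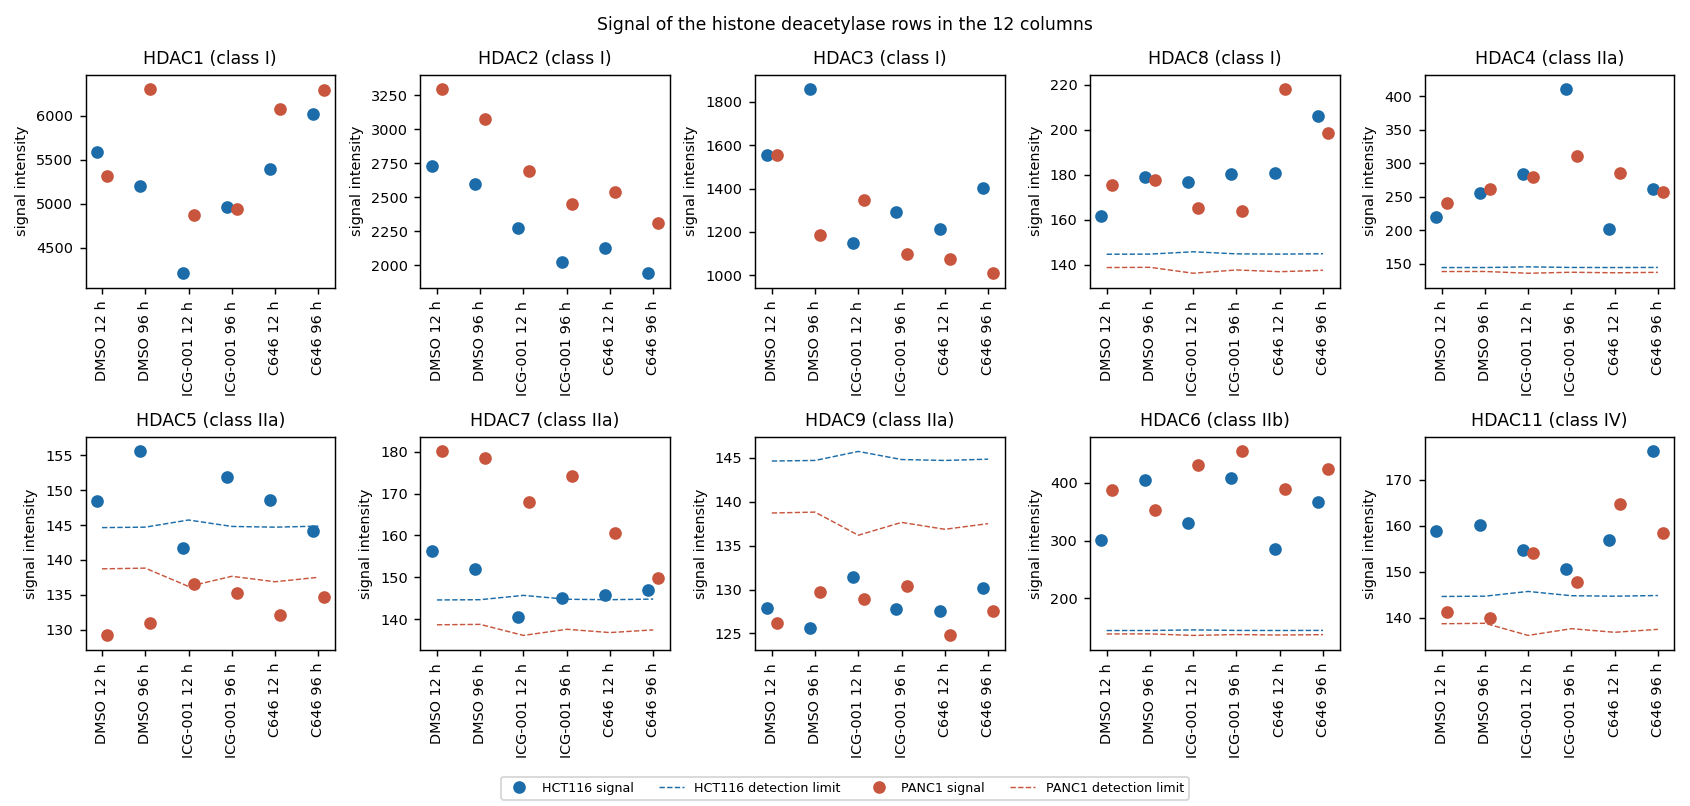
Signal intensity (linear scale) of the 10 histone deacetylase rows in the 6 columns of HCT116 and of PANC1, each point the authors' mean of arrays. Every panel has its own axis, which does not start at 0, and the dashed detection limits are drawn in the panels whose signals stay under 1000. HDAC2 was brightest with DMSO in both lines, HDAC4 stood highest in HCT116 at 96 h of ICG-001, and HDAC9 lay under the limit in every column.

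Differences from DMSO were small in most of the family. HDAC2 and HDAC3 had lower signals with both drugs in both lines, and HDAC4 was higher with ICG-001 in HCT116. HDAC7 was lower throughout, but in some comparisons only by amounts inside the SD of dim rows. HDAC1, HDAC5, HDAC6, HDAC8 and HDAC11 went either way, and HDAC9 was too dim to compare. Over the 8 comparisons of a drug with DMSO, 69 values of the members could be compared. Of these, 1 (1.45%) was at least 1.5-fold, beside 6.08% of the values of all rows. At 1.2-fold or more there were 20 values (29.0%), beside 26.1% of all values. Of them, 15 were lower (21.7%, beside 13.2%) and 5 higher (7.25%, beside 12.9%). All the lower ones came from HDAC1, HDAC2 and HDAC3, with HDAC2 in all 8 comparisons, so they do not describe the family as a whole. The higher ones came from HDAC4, HDAC6 and HDAC8. Each DMSO column served both drugs, so the values with ICG-001 and with C646 share a control. In RNA from whole cultures, fewer cells of a type and less RNA per cell cannot be told apart.

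**Figure D2:**
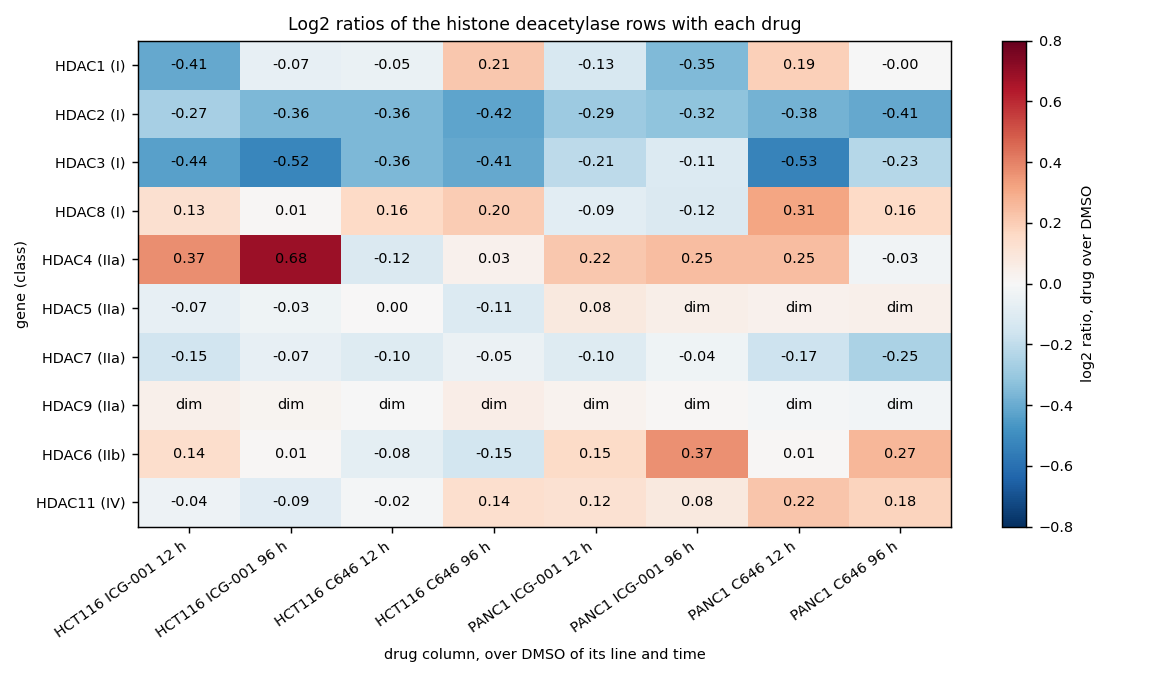
Log2 ratios of each drug column over the DMSO column of its line and time (columns) for the 10 histone deacetylases (rows, class in parentheses), coloured from blue (lower with the drug) to red (higher); "dim" marks values with the gene under the limit in both columns. The HDAC2 and HDAC3 rows were negative throughout, and the only value past 1.5-fold was that of HDAC4 in HCT116 at 96 h of ICG-001.

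HDAC2 was lower with both drugs in both lines and at both times. In HCT116 its signal was 2730 with DMSO at 12 h and 2597 at 96 h, 2271 and 2022 under ICG-001, then 2126 and 1941 under C646. In PANC1 it was 3293 and 3071 with DMSO, 2689 and 2453 under ICG-001, then 2537 and 2308 under C646. All 4 drug signals lay below both DMSO signals in each line. The log2 ratios over DMSO ran from -0.42 to -0.27. HDAC2 was the 1 member, of 8 that could be compared throughout, that was at least 1.2-fold lower in all 8 comparisons, and 1.08% of 13216 rows were so.

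HDAC3, the deacetylase of the NCoR/SMRT complex, was also lower in all 8 comparisons. In HCT116 its signal was 1554 with DMSO at 12 h and 1858 at 96 h, 1149 and 1293 under ICG-001, then 1212 and 1401 under C646. The PANC1 signals were 1556 and 1184 with DMSO, 1349 and 1099 under ICG-001, then 1076 and 1009 under C646. The drug signals lay below both DMSO signals in HCT116, while in PANC1 the ICG-001 signal at 12 h lay above the DMSO signal at 96 h. The HCT116 log2 ratios at 12 and 96 h were -0.44 and -0.52 for ICG-001 and -0.36 and -0.41 for C646. Those of PANC1 were -0.21 and -0.11 for ICG-001 and -0.53 and -0.23 for C646. HDAC7 was the third member with a lower signal in all 8 comparisons, beside 11.9% of rows, but the second row of that gene, HDAC7A, was not lower throughout. At 96 h the HDAC7 log2 ratios were -0.07 (ICG-001) and -0.05 (C646) in HCT116 and -0.04 (ICG-001) in PANC1. These lie inside the SD of dim rows in those comparisons (0.073, 0.072 and 0.071), so their signs carry no weight. No member was higher in all 8, beside 9.97%. None was higher than DMSO in every comparison of 1 line and lower in every comparison of the other, beside 1.94%.

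HDAC1, the partner of HDAC2 in its complexes, was lower with ICG-001 than with C646 in both lines and at both times. In HCT116 its signal was 5587 with DMSO at 12 h and 5199 at 96 h, 4209.6 and 4965 under ICG-001, then 5395 and 6025 under C646. PANC1 had 5319 and 6301 with DMSO, 4874 and 4935 under ICG-001, then 6075 and 6289.9 under C646. The ICG-001 signals were the lowest in both lines. The log2 ratio over DMSO ran from -0.41 in HCT116 at 12 h of ICG-001 to 0.21 in HCT116 at 96 h of C646.

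HDAC8, a class I enzyme that acts outside these complexes and deacetylates the cohesin subunit SMC3, had signals nearer to the limit. In HCT116 it was 162 with DMSO at 12 h and 179 at 96 h, 177 and 180.4 under ICG-001, then 181 and 206 under C646. The PANC1 signals were 175 and 178 with DMSO, 165 and 164 under ICG-001, then 218 and 199 under C646. The PANC1 signals with C646 were the highest of that line and those with ICG-001 the lowest. The log2 ratio over DMSO in PANC1 was 0.31 and 0.16 with C646 and -0.09 and -0.12 with ICG-001.

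HDAC4, which represses MEF2 factors, had the family's largest difference from DMSO. In HCT116 its signal was 219.8 with DMSO at 12 h and 256 at 96 h, 284 and 411 under ICG-001, then 203 and 262 under C646. PANC1 had 241 and 262 with DMSO, 279.9 and 311 under ICG-001, then 286 and 257 under C646. In HCT116 both ICG-001 signals lay above those of the other 4 columns, while in PANC1 only the ICG-001 signal at 96 h stood above the rest. The ratio in HCT116 at 96 h of ICG-001 was 1.60-fold (log2 ratio 0.68), in a comparison where 10.5% of rows passed 1.5-fold, and the log2 ratio at 12 h was 0.37. After background correction by normexp these became 1.99-fold and 1.52-fold, so that 2 values passed in place of 1.

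The rows whose pattern was most like that of HDAC4 were looked for among 11516 others detected in all 12 columns, after centring log2 signals within each line. They were B4GALT1, a galactosyltransferase, with a root mean square difference of 0.080, ACVR1, an activin receptor, with 0.086, and VEZF1, a zinc finger factor, with 0.086. That of HDAC4 about its own line means was 0.24. The log2 ratios at 12 and 96 h of ICG-001 in HCT116 were 0.29 and 0.82 for B4GALT1, 0.43 and 0.54 for ACVR1, and 0.32 and 0.50 for VEZF1. The columns behind these ratios were used to choose the rows, so their rise with ICG-001 follows from the choice.

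The other class IIa genes were dim. HDAC9 was under the limit in all 12 columns, with signals between 126 and 131 (HCT116) or 125 and 130.4 (PANC1), so none of its ratios was used. HDAC5 ranged from 142 to 156 in HCT116, where 4 of 6 columns passed the limit, and from 129 to 136 in PANC1, where 1 did. HDAC7 ranged from 141 to 156 in HCT116, with 5 columns above the limit. In PANC1 all 6 were above it, at 180.03 and 179 with DMSO at 12 and 96 h, 168 and 174 under ICG-001, then 161 and 149.9 under C646. The PANC1 drug signals of HDAC7 were thus all under those with DMSO, by log2 ratios of -0.25 to -0.04. A second row carried HDAC7A, an older name of HDAC7, between 138 and 152 in HCT116 and between 156 and 167 in PANC1, where its DMSO signals of 156 and 166 lay within the range of its drug signals. HDAC7A went against HDAC7 with ICG-001, where its log2 ratios over DMSO at 12 and 96 h were above 0, at 0.011 and 0.12 for HCT116 and at 0.056 and 0.0027 for PANC1.

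HDAC6, the tubulin deacetylase, also binds ubiquitin and takes part in the clearance of protein aggregates. In HCT116 its signal was 300.2 with DMSO at 12 h and 405 at 96 h, 331 and 408 under ICG-001, then 285 and 366 under C646. The PANC1 signals were 387 and 352 with DMSO, 430.1 and 454 under ICG-001, then 389.8 and 424 under C646. The HCT116 columns parted by time, with every 96 h signal above every 12 h signal. The largest log2 ratios over DMSO were those in PANC1 at 96 h, 0.37 with ICG-001 and 0.27 with C646.

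HDAC11, known as a remover of fatty acyl groups from lysine, was detected in all 12 columns but near the limit. It ranged from 151 to 176 in HCT116, where the highest signal was that at 96 h of C646. PANC1 had 141 and 140.02 with DMSO at 12 and 96 h, 154 and 148 under ICG-001, then 165 and 158 under C646. All 4 PANC1 drug signals lay above those with DMSO, with log2 ratios of 0.08 to 0.22.

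Compared directly, HDAC1 was lower with ICG-001 than with C646 in both lines, and HDAC4 was higher with ICG-001 in HCT116. Of 35 values over the 4 comparisons of the drugs at the same line and time, 1 was at least 1.5-fold, that of HDAC4 in HCT116 at 96 h (log2 ratio 0.65), beside 5.69% of the values of all rows. After normexp 3 passed, HDAC4 in HCT116 at both times and HDAC8 in PANC1 at 12 h. At 1.2-fold there were 10 (28.6%), beside 26.1%, with 4 higher under ICG-001 (11.4%, beside 12.9%) and 6 lower (17.1%, beside 13.2%). For HDAC1 the HCT116 log2 ratio between the drugs was -0.36 at 12 h and -0.28 at 96 h. That of PANC1 was -0.32 and -0.35. HDAC1 was the 1 member of 8 at least 1.2-fold lower with ICG-001 in all 4, beside 1.64% of 13821 rows. HDAC1, HDAC8 and HDAC11 were lower with ICG-001 in all 4, beside 17.1% of rows, and HDAC2 and HDAC6 higher in all 4, beside 16.6%. For HDAC2 these log2 ratios were only 0.06 to 0.10. In HCT116 at 12 h they were -0.03 for HDAC8 and -0.02 for HDAC11. Both lie inside the SD of dim rows in that comparison (0.074), so their signs carry no weight. HDAC3 was lower with ICG-001 in HCT116, at -0.08 and -0.12, and higher in PANC1, at 0.33 and 0.12.

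**Figure D3:**
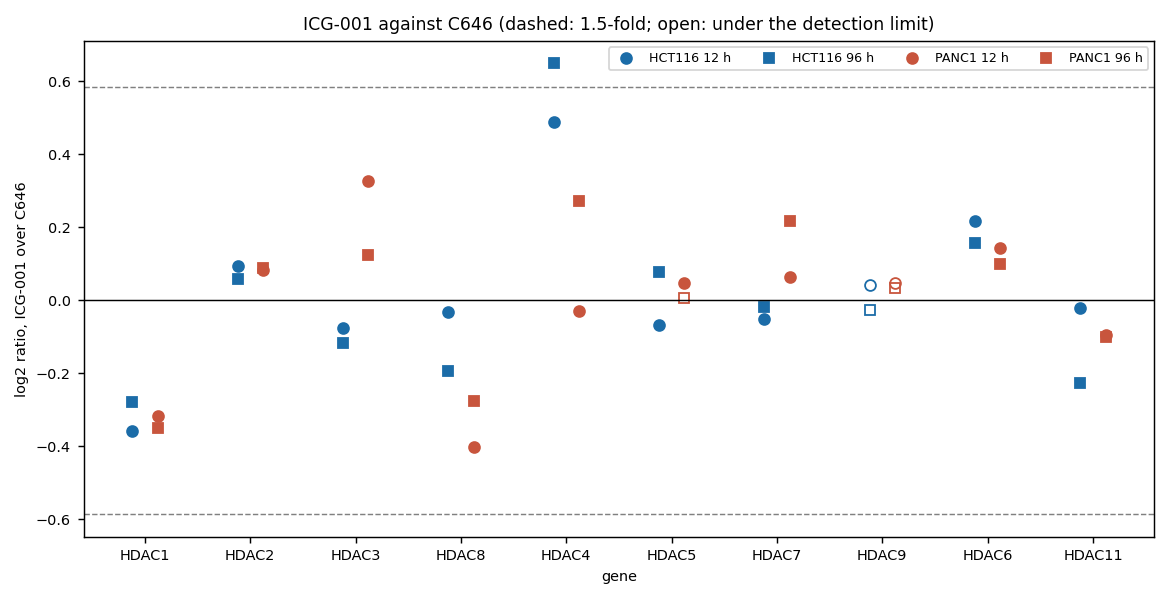
Log2 ratio of the ICG-001 signal over the C646 signal at the same line and time for each histone deacetylase, with circles for 12 h, squares for 96 h, open symbols under the limit and dashed lines at 1.5-fold. The 4 HDAC1 points lie between -0.36 and -0.28, and HDAC4 in HCT116 at 96 h is the 1 point beyond a dashed line.

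Between 12 and 96 h, HDAC3 went up in HCT116 and down in PANC1, and HDAC6 went up in HCT116. In the DMSO columns, none of 17 values was at least 1.5-fold, beside 2.28% of the values of all rows, and 2 were at least 1.2-fold (11.8%, beside 19.2%). These were HDAC6 in HCT116, which was higher at 96 h by a log2 ratio of 0.43, beside 10.7% of values higher by 1.2-fold, and HDAC3 in PANC1, with a ratio of -0.39, beside 8.48% lower. The HDAC3 log2 ratio of 96 h over 12 h was 0.26 with DMSO, 0.17 with ICG-001 and 0.21 with C646 in HCT116. In PANC1 it was -0.39, -0.30 and -0.09. HDAC3 was the 1 member of 8 that was higher at 96 h in all 3 HCT116 treatments and lower in all 3 PANC1 treatments, beside 2.18% of 13100 rows. No member did the reverse, beside 2.11%. The HDAC6 log2 ratios in HCT116 were 0.43, 0.30 and 0.36, and 5.01% of 14541 rows were at least 1.2-fold higher at 96 h in all 3 HCT116 treatments.

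**Figure D4:**
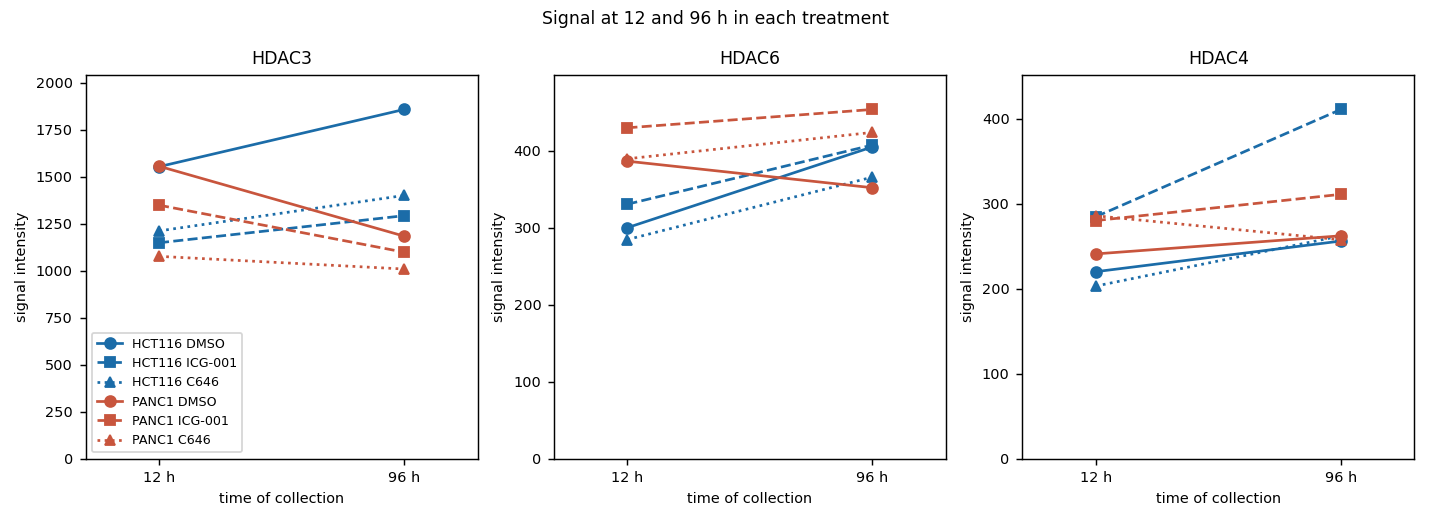
Signal intensity of HDAC3, HDAC6 and HDAC4 at 12 and 96 h, with 1 line for each cell line and treatment and axes that start at 0. The 3 HCT116 lines of HDAC3 go up and the 3 PANC1 lines go down, and HDAC4 with ICG-001 in HCT116 goes from 284 to 411.

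The lines had been normalized apart, so signals across them are set side by side only as a description. With DMSO, HDAC3 was 1556 in PANC1 and 1554 in HCT116 at 12 h, and 1184 and 1858 at 96 h. The log2 ratio of PANC1 over HCT116 was thus 0.0023 at 12 h and -0.65 at 96 h, and after quantile normalization over all 12 columns it was -0.08 and -0.76. HDAC6 had ratios of 0.37 and -0.20 at the same times. HDAC2 had 0.27 and 0.24, and HDAC7 0.20 and 0.23.

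The complexes and partners of these enzymes were described from lists of 102 genes, all of which had a row. Among NuRD subunits, 11 of 88 values (12.5%) were at least 1.5-fold lower than DMSO and 0 higher, with a median log2 ratio of -0.14, beside 6.08% in either direction and a median of -0.0029 over all rows. For the 10 deacetylases the median was -0.05. The 11 values came from MTA1, MTA2 and GATAD2B, of which GATAD2B was named after its values were seen. MTA2, a scaffold subunit that binds HDAC1 and HDAC2, had HCT116 signals of 1337 with DMSO at 12 h and 1171 at 96 h, 772 and 633 under ICG-001, then 732 and 485 under C646. Its log2 ratios in PANC1 were 0.15 and -0.67 for ICG-001 and 0.14 and -0.27 for C646. With DMSO alone, the PANC1 signal of MTA2 was higher at 96 h than at 12 h, by a log2 ratio of 0.59. That of GATAD2B was lower at 96 h, with a log2 ratio of -0.53. MTA1 had ratios of -0.74 and -0.69 with C646 in HCT116, and the largest rise of the list was that of GATAD2A (0.44).

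In the SIN3 list 1 value was higher and 4 lower of 96 (5.21%, beside 6.08% of the values of all rows). SAP30, a SIN3 subunit, had log2 ratios of -0.71 and -1.07 at 12 and 96 h of ICG-001 in HCT116, and BRMS1 reached 0.59. In the CoREST list 4 values were higher and 1 lower of 72 (6.94%, beside 6.08%). The 4 were PANC1 values of RCOR2, whose log2 ratio reached 1.03 at 12 h of C646, and HMG20B, named after its values were seen, while ZNF217 reached -0.59. The PANC1 DMSO signal of RCOR2 was itself higher at 96 h than at 12 h, by a log2 ratio of 0.46. In the NCoR/SMRT list 1 value was higher and 2 lower of 48 (6.25%, beside 6.08%). TBL1X, a subunit of that complex, was higher than DMSO in all 8 comparisons, beside 9.97% of rows, by log2 ratios of 0.20 to 0.63. In PANC1 its DMSO signal was itself higher at 96 h than at 12 h, by a log2 ratio of 0.58. TBL1XR1 reached -0.65. In the MiDAC list 1 of 24 values passed (4.17%, beside 6.08%), that of DNTTIP1 at 0.62, and MIDEAS, listed as C14orf43, reached -0.29.

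Among class IIa partners 1 value was higher and 11 lower of 130 (9.23%, beside 6.08% of the values of all rows), from 2 genes. YWHAE, the 14-3-3 protein epsilon, was at least 1.5-fold lower in all 8 comparisons. In HCT116 its log2 ratios at 12 and 96 h were -0.95 and -1.06 for ICG-001 and -0.74 and -0.86 for C646. The PANC1 ratios were -1.01 and -1.11 for ICG-001 and -1.53 and -0.76 for C646. With DMSO alone, the PANC1 signal of YWHAE was also lower at 96 h than at 12 h, by a log2 ratio of -1.02. SFN, the 14-3-3 protein sigma, was lower in PANC1 with both drugs, at -1.13 and -0.59 at 12 and 96 h of C646 and at -0.16 and -0.81 at those times of ICG-001, and higher at 96 h of C646 in HCT116, at 0.81. Among HDAC6 substrates and partners 6 values were higher and 3 lower of 79 (11.4%, beside 6.08%). SQSTM1, the autophagy receptor p62, had log2 ratios of 0.95 and 1.44 with ICG-001 in HCT116 and 0.60 and 0.72 in PANC1. It was higher than DMSO in all 8 comparisons, beside 9.97% of rows. With C646 its ratios were 0.44 and 0.65 in HCT116 and 0.13 in PANC1 at 96 h. PRDX2, a peroxidase that HDAC6 deacetylates, had -0.59 and -0.65 with ICG-001 in HCT116.

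Among cohesin genes 0 values were higher and 2 lower of 87 (2.30%, beside 6.08% of the values of all rows). RAD21 at -0.63 and STAG1 at 0.53 were the extremes. None of 46 values of sirtuins, deacetylases that use NAD, passed, beside 6.08%. SIRT2 was lower than DMSO in all 8 comparisons, beside 11.9% of rows, down to -0.54, and SIRT7 reached 0.41. Among histone acetyltransferases 2 values were higher and 2 lower of 99 (4.04%, beside 6.08%). KAT2A (GCN5) had log2 ratios of 0.69 and 0.65 with C646 in PANC1 at 12 and 96 h, and KAT6A, listed as MYST3, reached -0.71 in PANC1 at 12 h of C646. Other list genes shared the pattern of SIRT2, lower in all 8, some by sizes inside the SD of dim rows. They were RAD21, STAG2, HAT1, KAT7 (listed as MYST2), CHD3, MTA1, MBD2, GATAD2B, SAP130, ARID4A, YWHAE and EP300, the gene of p300. The EP300 log2 ratios ran from -0.43 to -0.05. Several of these genes were named after their values were seen.

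**Figure D5:**
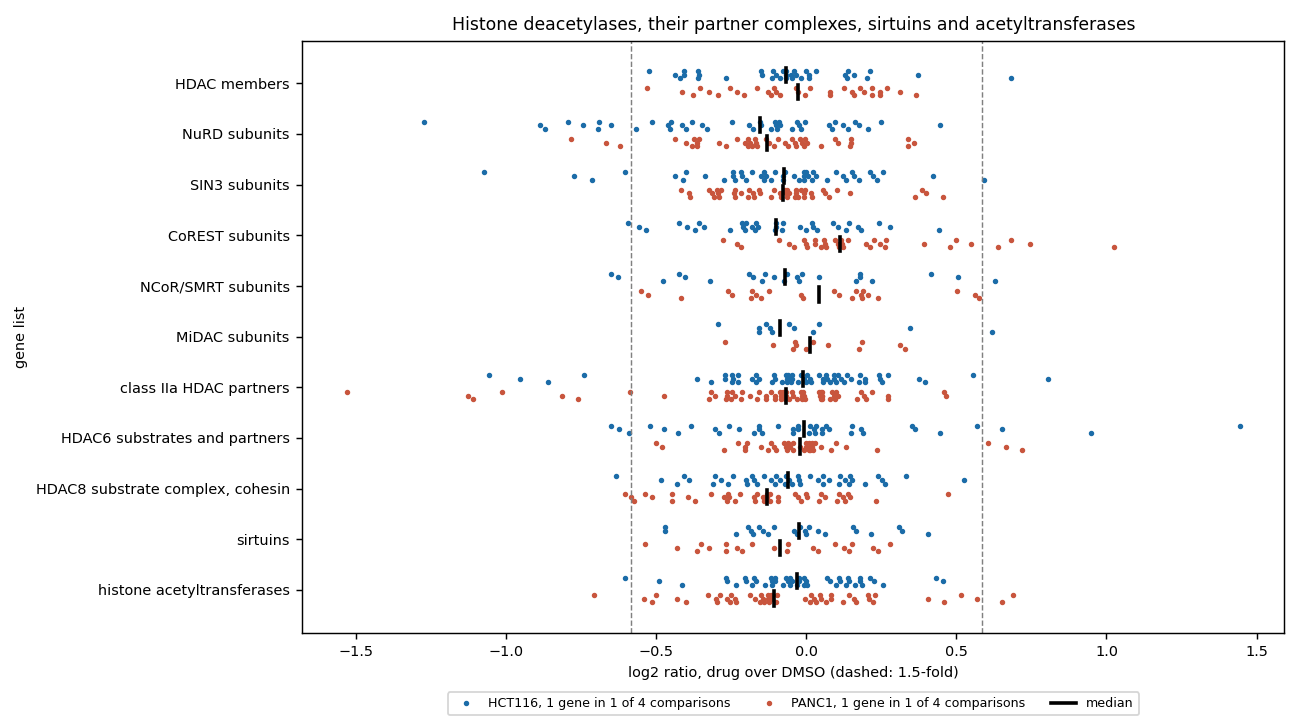
Log2 ratios of drug over DMSO (x axis) for the deacetylases and the 10 other gene lists (y axis), 1 point for a gene in 1 comparison, with HCT116 above PANC1 in each list, a black bar at the median and dashed lines at 1.5-fold. The deacetylases had 1 point beyond a dashed line, while the NuRD list had 11, all on the lower side.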

How the data were processed

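Signal intensity, not log-transformed, was deposited as 1 column per group with 1 row per gene name. To make it, the authors quantile normalized the arrays without subtracting background (GenomeStudio, named in the methods and the submitters' processing notes) and took the mean of replicate arrays. Single-array values were not used here. Sorted log2 values differed on average by 0.0037 to 0.0093 between columns of a line and by 0.063 to 0.066 between lines.

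Signals were converted to log2 and subtracted. The detection limit was the peak of the log2 density (Gaussian kernel, width 0.05) plus 2.33 SD of the values below the peak, and 43.4% to 46.3% of rows passed it in a column. Members and gene lists were chosen with earlier results of these data known. From the lists, genes at least 1.5-fold in 1 direction at both times of a drug in a line were named, plus each list's largest rise and fall, and, for a deacetylase past 1.5-fold, the 3 rows most like it. Over all rows, 409 were at least 1.5-fold higher and 328 lower at both times of ICG-001 in HCT116, of 15284 compared. With C646 in HCT116 they were 214 and 115 of 15242. In PANC1 they were 164 and 44 of 15561 with ICG-001, and 383 and 133 of 15621 with C646. Of 102 list genes, 93 matched by current and 9 by older symbol. Python 3.11.15 (numpy 2.4.6, pandas 2.3.3, matplotlib 3.10.9) and limma 3.58.1 in R 4.3.3 were used. The code was run on simulated 2-fold shifts in rows well above the limit. That run says nothing about smaller differences, dim members or the spread between cultures. Alternatives were folds of 1.2 and 2, no filter, a limit at 5 SD, normexp with an offset of 16 and quantile normalization within a line, median centring, and quantile normalization over 12 columns.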

Additional observations from a re-analysis of the deposited data

Results flagged for a closer look

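HDAC3 moved in opposite directions with time in the lines. Its mean log2 ratio of 96 h over 12 h, over the 3 treatments of each line, was higher by 0.47 in HCT116 than in PANC1, with all HCT116 values above 0 and all PANC1 values below it. The difference was not tested, and time, density and passage cannot be told apart.

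HDAC6 in HCT116 had log2 ratios over DMSO of 0.14 and 0.0086 at 12 and 96 h of ICG-001 and of -0.08 and -0.15 at those times of C646, with means that differed by 0.19. The ICG-001 value at 96 h is well inside the SD of dim rows in that comparison (0.073), so its sign carries no weight. HDAC8 in PANC1 was lower than DMSO with ICG-001 and higher with C646, with a difference of -0.34. Both drugs share their DMSO columns, and neither difference was tested.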

How the results depend on the processing

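Over the 8 comparisons with DMSO, 1 deacetylase value passed 1.5-fold, and 20 passed at 1.2-fold, 0 at 2-fold and 2 after normexp. For ICG-001 over C646 the count of 1 became 10 at 1.2-fold, 0 at 2-fold and 3 after normexp. For DMSO at 96 h over 12 h the count of 0 became 2 at 1.2-fold. These counts did not change without the filter, at a limit of 5 SD, after centring or after quantile normalization over 12 columns. At 5 SD, where fewer genes were compared, HDAC7 left the 3 members lower than DMSO throughout and HDAC11 the 3 lower with ICG-001 than C646. Of 121 member values, 53 moved by more than the SD of dim rows after normexp (by up to 0.38), 0 after centring and 2 after quantile normalization over 12 columns (by up to 0.083). In each of these settings 1 value changed sign, from a size of at most 0.0026. No paired analysis was possible because the replicates named in the labels are averaged within each column, which also leaves no replicate to leave out. Background left in the signal limits what dim members (HDAC5, HDAC7, HDAC8, HDAC9 and HDAC11) can show.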
